A study of Homo sapiens with 15 samples.

Results

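The genes described here are 37 genes of the integrated stress response and the unfolded protein response, read in RNA sequencing of K562 cells. They were chosen by symbol, from a list of genes of the ATF4 amino acid response (20 genes, here called the ATF4 arm) and of targets and sensors of the endoplasmic reticulum (ER) response (17 genes, the ER arm), a list drawn up with earlier results of these data known. All 37 were found among the 57500 genes of the count tables and all 37 were among the 15517 genes with enough counts to be tested. K562 is an established human leukaemia line with erythroid traits, and the labels give its cell type as lymphoblast. Counts came from 15 libraries in 5 groups of 3, all taken at 1 h. The control libraries are labelled WT with the treatment NT, while the series text lists DMSO. The other 4 groups were transfected with Cas9FCPF, a Cas9 protein carrying the FCPF tag, and received a compound at 1 µM. The compound was JQ1 or JQ1-FCPF, and each was given without or with an sgRNA. The labels write the genotype as Cas9FCPF-sgRNA or Cas9FCPF+sgRNA, read here as without and with the guide RNA, as the text of the series lists the groups. JQ1 blocks the bromodomains by which BET proteins bind acetylated histones, and JQ1-FCPF is a derivative that carries the name of the tag. The title names dCas9, a form that does not cut DNA, whereas the labels write Cas9. The target of the sgRNA is not named in the labels, and the sources do not say whether control cells were transfected, so in every comparison with the control the compound, Cas9FCPF and the transfection cannot be told apart. Whether replicates are separate cultures is not stated either, and the p-values therefore reflect the spread among these libraries alone, which may be technical.

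ATF4 is a transcription factor whose messenger RNA is translated more when eIF2 is phosphorylated, by GCN2 on amino acid shortage or by PERK on ER stress. It drives genes for amino acid synthesis and uptake, together with regulators such as DDIT3 and ATF3. In the ER, unfolded proteins engage the sensors PERK (EIF2AK3), IRE1 (ERN1) and ATF6. ATF6 and the spliced form of XBP1 then raise chaperones such as HSPA5 and the proteins of ER-associated degradation. Counts per gene show neither the translation of ATF4 nor the splicing of XBP1.

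Promoter sequences were available for 34 of the 37 genes in the RefSeq table of build GRCh38.p14, in 47 entries of 250 bases before to 50 bases after a transcription start, and not for PSPH, SHMT2 and SLC7A11. The ER stress response element, CCAAT followed by any 9 bases and then CCACG, was searched on both strands, like the other motifs, and was found in 27 of all 35116 promoters of the table (0.0769%). It was present in 6 of the 20 ER arm entries (CALR, CRELD2, HSP90B1, HSPA5, PDIA6 and XBP1) and in 0 of the 27 ATF4 arm entries. The C/EBP-ATF element, TGATGNAA, was found in 3.62% of all promoters. It was present in 5 of the 27 ATF4 arm entries (ASNS, ATF3, CEBPG, CHAC1 and SLC3A2) and in 1 ER arm entry, that of HERPUD1. The cyclic AMP element TGACGTCA was found in 1.85% of all promoters and, among these genes, in PPP1R15A, and the element TGACGTGG in 0.729% of all promoters and in none of the 47 entries. A match is only a match of letters in this window, the last 2 motifs share their first 6 letters, and some genes have several entries. Other spacings or orders of CCAAT and CCACG were not searched. An entry without a match, such as that of HERPUD1, is therefore not shown to lack an ER stress element. The 250 bases before the start are given here for 6 genes, 5′ to 3′ along the gene, and only for entries with a match. Their transcripts moved in these samples or their product acts on the others. GDF15, MANF, DDIT3, PHGDH, DDIT4 and ATF6, whose transcripts also moved, had no match in the entries searched. Capitals mark the fixed letters of the ER stress response element in HSPA5, HSP90B1 and XBP1, and of the C/EBP-ATF element in HERPUD1, ASNS and CHAC1. In HERPUD1, CHAC1 and the second match of HSP90B1 the motif lies on the opposite strand and is read here as its reverse complement.
HSPA5 (chr9:125241344-125241593, minus strand): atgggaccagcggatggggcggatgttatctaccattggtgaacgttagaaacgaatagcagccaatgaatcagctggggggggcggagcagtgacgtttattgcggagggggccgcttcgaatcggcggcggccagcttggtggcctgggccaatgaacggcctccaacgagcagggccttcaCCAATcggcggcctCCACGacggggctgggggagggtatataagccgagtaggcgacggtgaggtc
HSP90B1 (chr12:103930160-103930409, plus strand): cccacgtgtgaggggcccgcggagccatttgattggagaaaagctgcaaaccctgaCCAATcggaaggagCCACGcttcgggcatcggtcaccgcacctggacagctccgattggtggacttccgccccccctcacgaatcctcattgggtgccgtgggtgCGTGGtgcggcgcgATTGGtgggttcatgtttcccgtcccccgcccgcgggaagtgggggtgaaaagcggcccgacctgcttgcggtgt
XBP1 (chr22:28800570-28800819, minus strand): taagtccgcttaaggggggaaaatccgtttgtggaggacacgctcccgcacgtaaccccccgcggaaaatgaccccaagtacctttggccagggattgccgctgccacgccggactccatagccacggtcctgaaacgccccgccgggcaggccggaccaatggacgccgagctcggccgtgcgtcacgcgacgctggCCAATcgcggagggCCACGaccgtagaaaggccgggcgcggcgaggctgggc
HERPUD1 (chr16:56931892-56932141, plus strand): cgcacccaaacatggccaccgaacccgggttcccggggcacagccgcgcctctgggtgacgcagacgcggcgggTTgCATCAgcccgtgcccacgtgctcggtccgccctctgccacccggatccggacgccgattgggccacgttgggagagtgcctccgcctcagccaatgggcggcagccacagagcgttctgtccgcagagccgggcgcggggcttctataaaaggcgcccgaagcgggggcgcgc
ASNS (chr7:97872409-97872658, minus strand): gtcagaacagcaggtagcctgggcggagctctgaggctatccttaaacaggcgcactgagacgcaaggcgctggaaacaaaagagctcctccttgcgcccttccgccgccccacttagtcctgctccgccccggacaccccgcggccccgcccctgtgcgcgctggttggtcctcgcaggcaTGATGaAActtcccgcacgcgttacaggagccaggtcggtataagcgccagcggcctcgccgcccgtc
CHAC1 (chr15:40953221-40953470, plus strand): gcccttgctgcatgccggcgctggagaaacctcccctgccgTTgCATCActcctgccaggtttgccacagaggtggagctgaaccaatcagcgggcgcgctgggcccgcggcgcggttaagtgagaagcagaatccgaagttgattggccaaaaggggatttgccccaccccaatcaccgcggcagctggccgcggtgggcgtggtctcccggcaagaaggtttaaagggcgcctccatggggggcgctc

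In HSPA5, HSP90B1 and XBP1 a match lay within 100 bases of the start, and in HSP90B1 a further match began 194 bases before it. Matches of the C/EBP-ATF element began 68 bases before the start of ASNS, 176 before that of HERPUD1 and 209 before that of CHAC1.

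The genes the results turn on lie on different chromosomes in GENCODE release 29 (build GRCh38), and counts were taken over the exons of each. In the ATF4 arm, ASNS (ENSG00000070669) at chr7:97852118-97872542 on the minus strand, GDF15 (ENSG00000130513) at chr19:18374731-18389176 on the plus strand and CHAC1 (ENSG00000128965) at chr15:40952962-40956519 on the plus strand are annotated. In the ER arm these are HSPA5 (ENSG00000044574) at chr9:125234853-125241330 on the minus strand and HERPUD1 (ENSG00000051108) at chr16:56932048-56944863 on the plus strand.

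Library totals ran from 12625669 to 17544518 counts, with 22970 to 27248 genes detected. Among the K562 markers, HBG2 stood between 444.5 and 851 CPM and GATA1 between 198 and 298.5 CPM (CPM, counts scaled to a common library size by TMM). The B cell marker MS4A1 had 1 count over all 15 libraries, KRT5 10 and COL1A2 17, while EPCAM ran from 64.0 to 81.9 CPM and CD3D from 17.4 to 32.4 CPM. A pair of libraries stood apart. On the first principal component (29% of the variance), JQ1-FCPF with sgRNA replicate 2 lay at 32.2 and the other replicates of that group at -16.7 and -14.8. The JQ1 libraries lay at 16.8 to 24.6, and the control and JQ1-FCPF libraries without sgRNA at -24.7 to -18.4. Replicate 2 was thus on the side of the JQ1 libraries, and the cause was not tested. MYC, whose transcripts stood at 168 ± 30.7 CPM (SD, n = 3) without and 59.5 ± 1.95 CPM with sgRNA under JQ1-FCPF, was as low in that replicate (57.3 CPM) as in the others. JQ1 with sgRNA replicate 1 had the highest share of mitochondrial counts (7.46%, against 2.31 to 5.98% in the other libraries) and the lowest share of ribosomal protein counts (8.47%). The main results for comparisons that include these libraries are given with and without them.

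Relative to the mean of the control libraries, the median log2 difference of the ATF4 arm in the JQ1-FCPF libraries with sgRNA was -0.04, 0.22 and 0.13, and that of the ER arm was 0.06, 0.43 and 0.12. Replicate 2 was thus the highest of the 3 in both arms. It was the highest of all 15 libraries for 7 of the 20 ATF4 arm genes and for 8 of the 17 ER arm genes. On the side without sgRNA, JQ1-FCPF replicate 2 was the lowest of all 15 for 7 of the 17 ER arm genes (arm median -0.18). It was the lowest for 3 of the 20 ATF4 arm genes (arm median -0.03). In JQ1 with sgRNA replicate 1 the ATF4 arm had the lowest median of all libraries (-0.14), with 6 of its 20 genes at their lowest of all 15, whereas the ER arm median was 0.18.

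**Figure D1:**
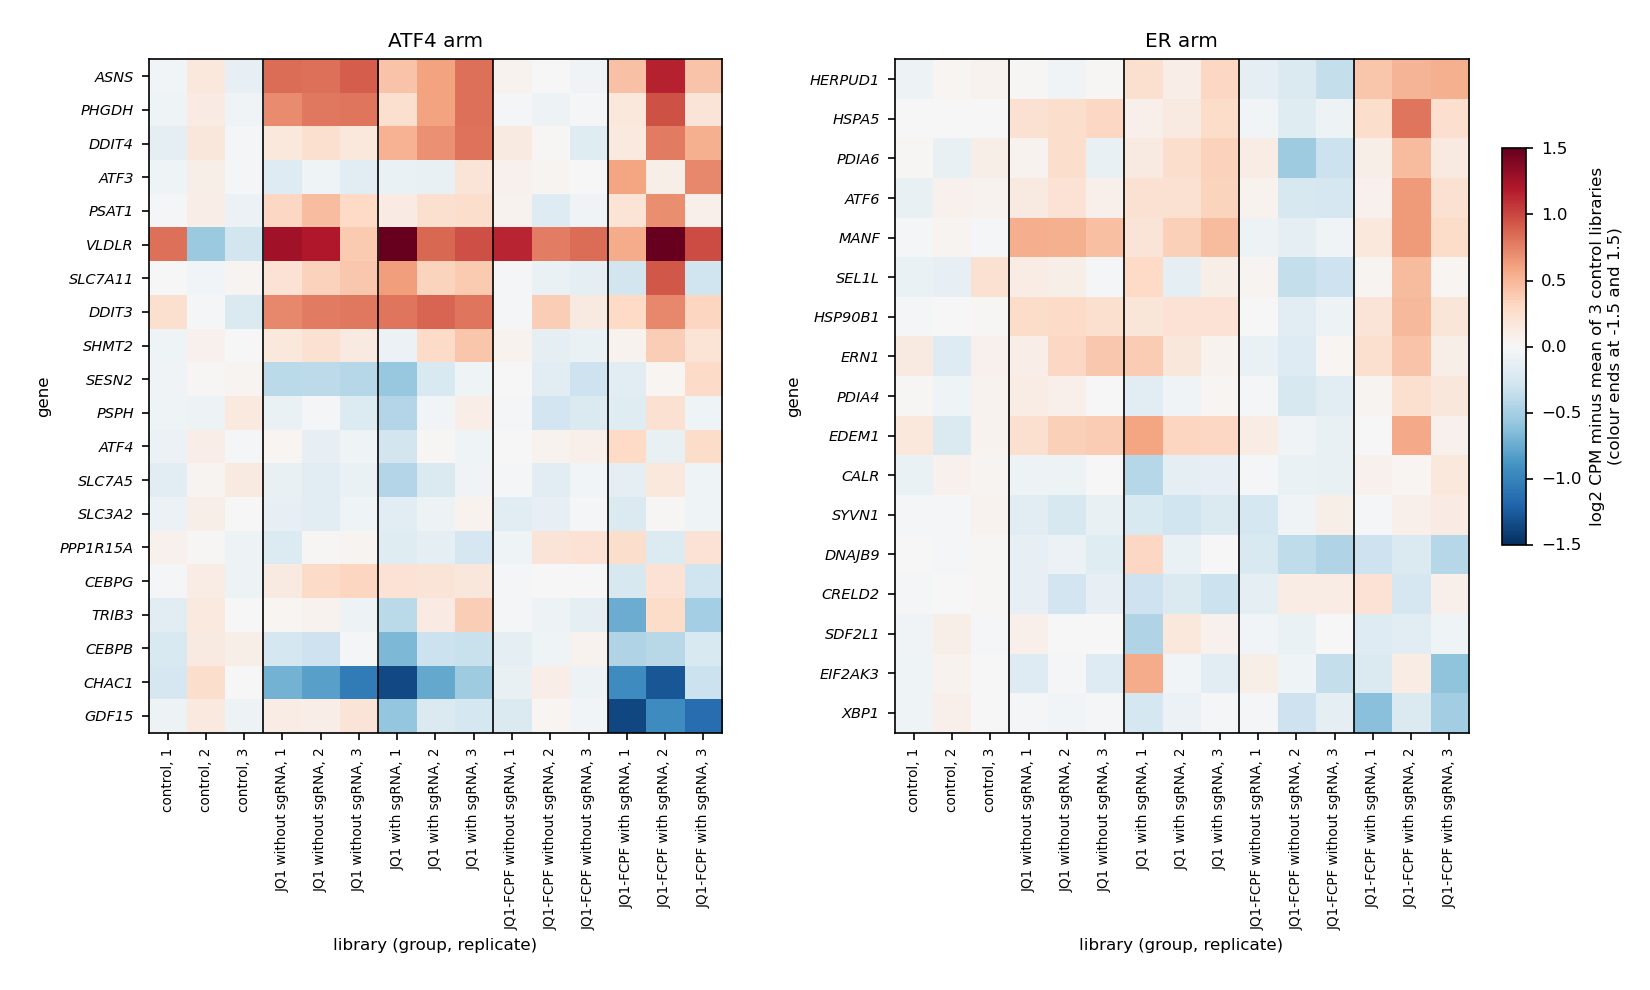
Heat maps of the 20 ATF4 arm genes (left) and 17 ER arm genes (right) in 15 libraries, as log2 CPM minus the mean of the 3 control libraries, with genes ordered by their change with sgRNA under JQ1-FCPF. ASNS, PHGDH and DDIT3 are red in every JQ1 library and CHAC1 is blue there, while the JQ1-FCPF libraries without sgRNA are close to the control and replicate 2 of JQ1-FCPF with sgRNA is the reddest column.

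Most of the genes were well expressed in the control libraries. Per kilobase of exon, the level in the control was highest for SDF2L1 (554 ± 28.4 CPM per kilobase, SD, n = 3) and CALR (464 ± 27.6), a chaperone cofactor and a lectin chaperone of the ER. In the ATF4 arm the order was led by DDIT4, an inhibitor of mTORC1 (243 ± 27.3), ATF4 itself (199.9 ± 13.3) and SLC7A5, the light chain of the large neutral amino acid transporter (183 ± 18.9). ATF4, HSPA5 (195 ± 1.05) and SLC7A5 followed each other within about their spreads, so the order of these 3 is not set. The sensors were low, with ATF6 at 7.58 ± 0.503, ERN1 at 1.73 ± 0.199 and EIF2AK3 at 1.01 ± 0.0451 CPM per kilobase. VLDLR was the lowest member, at 0.0449 ± 0.0321, with 12.5 counts per library on average.

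The first comparison asked what the sgRNA changed in cells given JQ1-FCPF. With sgRNA, 11 of the 37 genes changed, 9 of them upward. Asparagine synthetase (ASNS) and the ER chaperone HSPA5 rose 1.64-fold and 1.48-fold, HERPUD1 rose 1.66-fold, and the secreted stress cytokine GDF15 fell 2.1-fold. In the ATF4 arm, 3 genes rose and 2 fell, and in the ER arm 6 rose and 0 fell. Over all 15517 genes tested, 6.25% were called (2.06% higher and 4.2% lower). The libraries of the groups did not overlap for 6 higher and 3 lower genes of the ATF4 arm and for 8 higher and 0 lower genes of the ER arm, against 9.98% higher and 12.6% lower over all genes. The median log2 fold change was 0.20 in the ATF4 arm and 0.30 in the ER arm, against 0.01 over all genes tested. Without replicate 2 of the group with sgRNA, the medians were 0.09 and 0.23, against 0.01. Calls here and below are at an adjusted p under 0.05 (edgeR's quasi-likelihood test, Benjamini-Hochberg adjustment over all genes tested).

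ASNS, the enzyme that makes asparagine, stood at 421, 408 and 391 CPM in the JQ1-FCPF libraries without sgRNA and at 551, 902 and 543 CPM with sgRNA. The groups did not overlap, and replicate 2 stood far above the others. The log2 fold change was 0.71 ± 0.15 (SE; adjusted p = 0.00662, edgeR), and 0.43 ± 0.11 (adjusted p = 0.0221) without replicate 2 of the group with sgRNA. The enzymes of serine synthesis did not pass the test. PHGDH, which catalyses the first step, was at 208, 202 and 208 CPM without and 236, 412 and 242 CPM with sgRNA, a log2 fold change of 0.52 ± 0.16 (adjusted p = 0.0589, edgeR), and 0.22 ± 0.12 without replicate 2. PSAT1, which catalyses the next step, had 0.41 ± 0.13 (adjusted p = 0.0544, edgeR), and 0.21 ± 0.10 without replicate 2. For both, the libraries of the groups did not overlap. PSPH, the last enzyme, and SHMT2, which turns serine into glycine in mitochondria, had log2 fold changes of 0.17 and 0.28 and were not called (0.05 and 0.20 without replicate 2).

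Of the regulators in the ATF4 arm, ATF3 was called and ATF4 was not. ATF4 itself stood at 501, 518 and 529.7 CPM without sgRNA and at 619, 466 and 606 CPM with it. Replicate 2 lay below the libraries without sgRNA and the other replicates above them. The log2 fold change was 0.13 (95% interval -0.11 to 0.36; adjusted p = 0.563, edgeR), and 0.25 ± 0.10 (adjusted p = 0.179) without replicate 2. Without both libraries that stand apart it was 0.25 with an adjusted p of 0.0536 (edgeR). ATF3, a transcription factor induced by many stresses, was at 24.2, 23.7 and 23.2 CPM without and 34.8, 24.6 and 38.1 CPM with sgRNA. Its log2 fold change was 0.46 ± 0.13 (adjusted p = 0.0409, edgeR), with replicate 2 the lowest of the libraries with sgRNA. It was 0.62 ± 0.11 (adjusted p = 0.000699) without that replicate, but the call was lost without any other single library of the comparison (0.33 to 0.47, adjusted p of up to 0.168) and with only the groups compared in the fit (0.45, adjusted p = 0.157). DDIT3, the transcription factor CHOP, was at 30.9, 40.5 and 34.5 CPM without and 38.5, 51.8 and 39.4 CPM with sgRNA. These ranges overlapped and the change was not called (log2 fold change 0.29 ± 0.13, adjusted p = 0.187, edgeR). CEBPB and CEBPG, partners of ATF4 in binding DNA, had log2 fold changes of -0.32 and -0.08 and were not called.

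The remaining ATF4 arm genes included the largest fall of all 37. GDF15 was at 125, 148 and 141 CPM without sgRNA and at 56.4, 75.2 and 65.5 CPM with it, with no overlap. The log2 fold change was -1.07 ± 0.12 (adjusted p = 4.46e-06, edgeR), and -1.18 ± 0.12 without replicate 2. CHAC1, which breaks down glutathione, was at 51.5, 59.5 and 52.5 CPM without and 28.7, 22.7 and 44.5 CPM with sgRNA. All libraries with sgRNA lay below the others, and the log2 fold change was -0.76 ± 0.20 (adjusted p = 0.0248, edgeR), but -0.56 ± 0.19 (adjusted p = 0.0907) without replicate 2. DDIT4 was at 548, 504 and 440.0 CPM without and 553, 857 and 720.4 CPM with sgRNA. It rose by 0.51 ± 0.14 (adjusted p = 0.0269, edgeR), a call lost without replicate 2 (0.36 ± 0.13, adjusted p = 0.106). TRIB3, a pseudokinase, SESN2, which restrains mTORC1, PPP1R15A, which directs dephosphorylation of eIF2, VLDLR and the transporters SLC7A11, SLC7A5 and SLC3A2 were not called, with log2 fold changes between -0.18 and 0.37. SLC7A11, the cystine transporter, had 78.0 CPM in replicate 2 of the group with sgRNA against 33.6 and 33.4 CPM in the others. TRIB3 stood at a log2 CPM of 6.24 and 6.47 in replicates 1 and 3 with sgRNA, below the 6.95, 6.9 and 6.85 without. Its replicate 2 with sgRNA stood above them at 7.26, so the TRIB3 value of -0.18 joins libraries that disagree in direction.

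Among the ER arm genes, HERPUD1, a membrane protein of ER-associated degradation, gave the smallest p. It stood at 29.7, 28.2 and 25.6 CPM without sgRNA and at 44.0, 46.8 and 47.6 CPM with it. The replicates were close and the groups far apart, with a log2 fold change of 0.73 ± 0.10 (adjusted p = 5.39e-05, edgeR), and 0.72 ± 0.10 without replicate 2. HSPA5, the main Hsp70 chaperone of the ER, was at 738, 671 and 721 CPM without and 917, 1334 and 907 CPM with sgRNA. The groups did not overlap. The log2 fold change was 0.57 ± 0.13 (adjusted p = 0.00843, edgeR), and 0.36 ± 0.10 (adjusted p = 0.0289) without replicate 2. MANF, a small secreted ER protein that binds HSPA5, was at 49.7, 47.6 and 50.5 CPM without and 58.5, 81.2 and 63.6 CPM with sgRNA. It rose by 0.46 ± 0.11 (adjusted p = 0.0132, edgeR), and by 0.31 ± 0.09 (adjusted p = 0.0478) without replicate 2.

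The calls of 3 further ER arm genes were lost without replicate 2 of the group with sgRNA. ATF6, the sensor that is cleaved to an active factor, was at 61.9, 50.4 and 50.3 CPM without and 62.7, 93.2 and 70.0 CPM with sgRNA (0.47 ± 0.12, adjusted p = 0.0233, edgeR, and 0.30 ± 0.10 with adjusted p = 0.0978 without replicate 2). HSP90B1, the ER form of Hsp90, was at 820.0, 730.1 and 776 CPM without and 936.5, 1151 and 933 CPM with sgRNA (0.38 ± 0.10, adjusted p = 0.0318, edgeR, and 0.27 ± 0.10 with adjusted p = 0.105 without replicate 2). PDIA6, a disulfide isomerase, was at 264, 168 and 196 CPM without and 261, 339.6 and 269 CPM with sgRNA, groups that overlapped (0.47 ± 0.14, adjusted p = 0.0498, edgeR, and 0.34 ± 0.14 with adjusted p = 0.161 without replicate 2).

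XBP1, the transcription factor whose transcript IRE1 splices, had a negative value that did not pass the test. It was at 109, 88.4 and 99.8 CPM without and 71.1, 94.6 and 76.2 CPM with sgRNA, groups that overlapped through replicate 2. The log2 fold change was -0.30 ± 0.11 (adjusted p = 0.107, edgeR), and -0.42 ± 0.10 (adjusted p = 0.0113) without that replicate. The sensors ERN1 (17.4, 16.3 and 19.1 CPM without, 22.1, 25.3 and 19.8 CPM with sgRNA) and EIF2AK3 (5.85, 5.21 and 4.23 CPM without, 4.67, 5.90 and 3.56 CPM with sgRNA) were not called. Their log2 fold changes were 0.35 ± 0.13 and -0.13 ± 0.21, and the interval for EIF2AK3 ran from -0.58 to 0.31. The other 8 ER arm genes were not called: the disulfide isomerase PDIA4, the degradation genes SEL1L, EDEM1 and SYVN1, the chaperone CALR, and DNAJB9, CRELD2 and SDF2L1, with log2 fold changes between -0.09 and 0.39.

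ASNS, GDF15 and HERPUD1 were called in every alternative run, and the other 8 calls were each lost in at least 1. The count of 11 was 3 (2.43% of all genes) with only the groups compared in the fit. It was 8 (6.05% of all genes) without replicate 2 of the JQ1-FCPF group with sgRNA, of which 6 were among the 11. It was 3 (3.08%) without JQ1-FCPF without sgRNA replicate 2, and 5 (2.69%) without replicate 3 of that group. Without both libraries that stand apart it was 14 (10.2%), with 10 of the 11 among them, ATF6, CHAC1, DDIT4 and HSP90B1 included. Of the 9 K562 markers, KLF1 and TAL1 fell in this comparison, and their summed level over the list was 1673 to 2043 CPM with and 2033 to 2171 CPM without sgRNA. Of the 10 lymphoid, epithelial and fibroblast markers, 5 could be tested and COL1A1 rose, from 1.96 ± 0.0479 to 4.86 ± 1.11 CPM (SD, n = 3), while the summed level was 108 to 113 CPM with and 104 to 113 CPM without. The part of these in the results was not tested. In these bulk samples fewer cells of a type and less RNA per cell cannot be told apart.

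**Figure D2:**
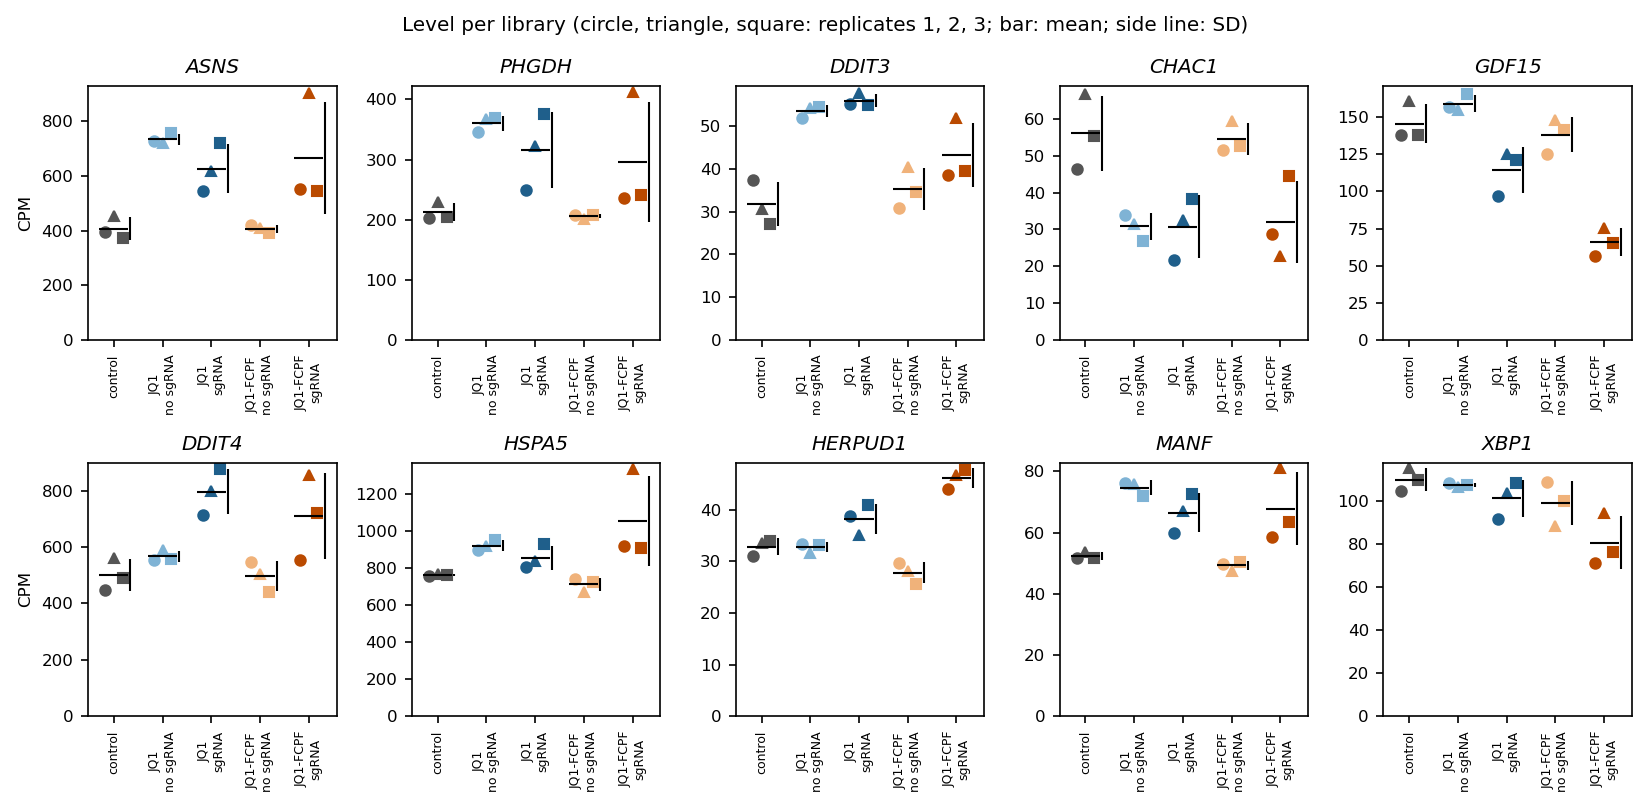
CPM of 10 genes in every library, by group, with circles, triangles and squares for replicates 1, 2 and 3, bars for the mean and side lines for the SD (n = 3). ASNS, PHGDH, DDIT3 and MANF are high in both JQ1 groups, CHAC1 is low there, and GDF15 is lowest and HERPUD1 highest in JQ1-FCPF with sgRNA.

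The sgRNA was also compared with its absence under JQ1. Here 0 of the 37 genes were called (edgeR), against 0.0129% of all genes tested. At an unadjusted p under 0.05 there were 3 (8.11%), against 8.15% of all genes tested, and DESeq2 called 0. These 3 were GDF15, DDIT4 and HERPUD1. GDF15 was at 157, 155 and 166 CPM without and 96.9, 125 and 121 CPM with sgRNA, with a log2 fold change of -0.48 ± 0.11 (adjusted p = 0.502, edgeR). DDIT4 was at 554, 588 and 557.5 CPM without and 714, 799 and 876.5 CPM with sgRNA (0.49 ± 0.14, adjusted p = 0.502, edgeR), a change of about the size seen under JQ1-FCPF. The groups did not overlap for 2 higher and 4 lower genes of the ATF4 arm and for 2 higher and 2 lower genes of the ER arm. GDF15, DDIT4, HERPUD1 and ASNS were among these, as were PSAT1, DDIT3, CEBPB, ATF6, HSP90B1 and CALR. The share of all genes without overlap was not computed for this comparison. Without replicate 1 of the group with sgRNA the values of GDF15 and DDIT4 were -0.38 ± 0.11 and 0.55 ± 0.14. HERPUD1 had 0.22 ± 0.10, and ASNS went from 727, 719.8 and 757 CPM without to 544, 618 and 719 CPM with sgRNA (-0.23, interval -0.54 to 0.09). The median log2 fold change was 0.00 in the ATF4 arm and -0.07 in the ER arm, against 0.01 over all genes.

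**Figure D3:**
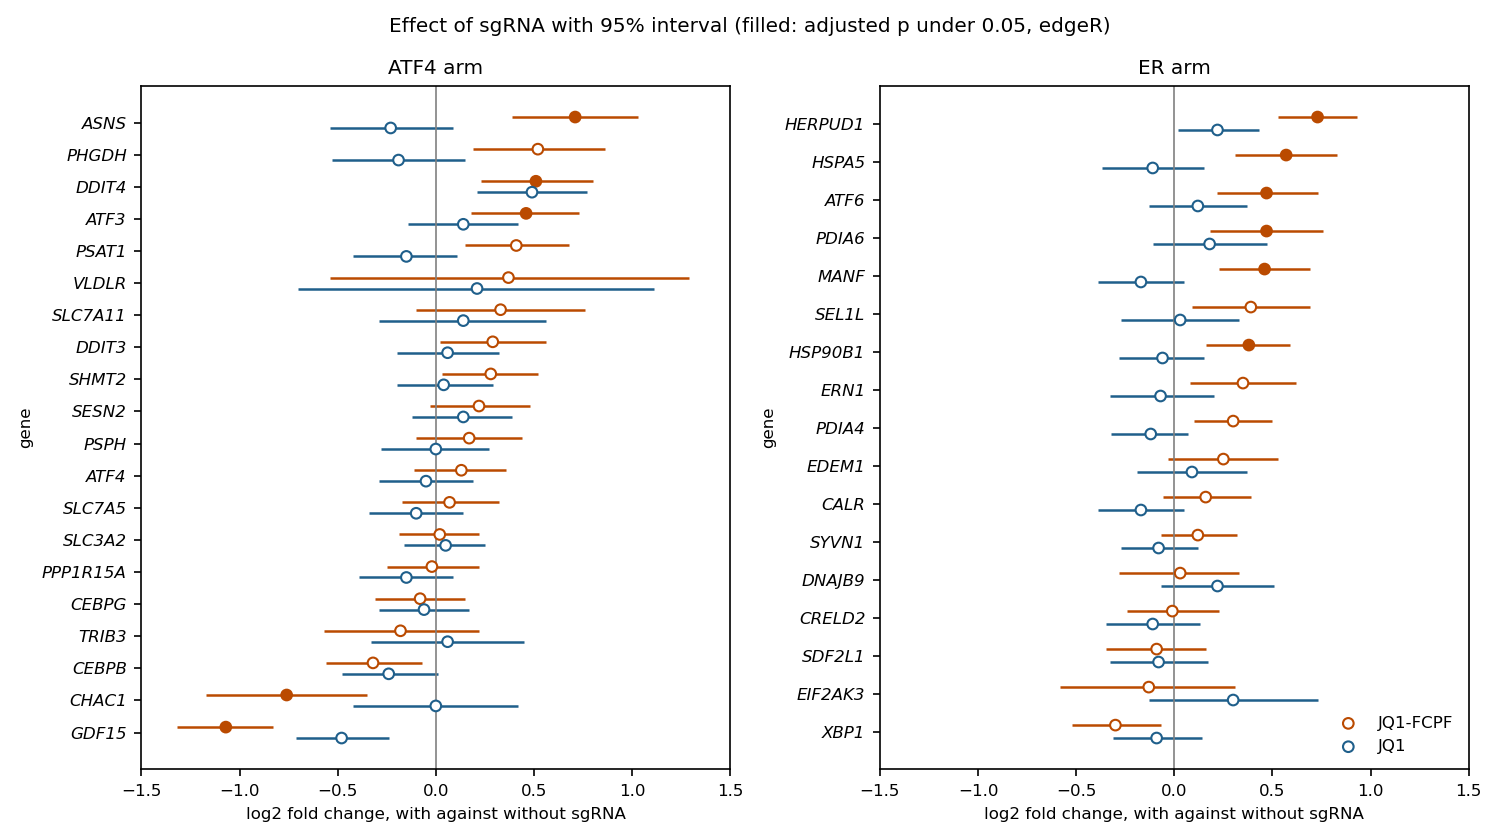
Log2 fold change with against without sgRNA for each gene of the ATF4 arm (left) and ER arm (right), under JQ1-FCPF (orange) and under JQ1 (blue), with 95% intervals and filled points for an adjusted p under 0.05 (edgeR). The filled points are the 11 genes called under JQ1-FCPF, and no gene is filled under JQ1.

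An interaction term tested whether the effect of the sgRNA differed between the compounds. It was called for 1 of the 37 genes, ASNS, against 0.786% of all genes tested (0.193% higher and 0.593% lower). Its sgRNA effect was 0.94 ± 0.21 higher on the log2 scale under JQ1-FCPF than under JQ1 (adjusted p = 0.0396, edgeR). Without JQ1-FCPF with sgRNA replicate 2 this was 0.67 ± 0.15 (adjusted p = 0.0204), and without JQ1 with sgRNA replicate 1 it was 0.86 ± 0.21 (adjusted p = 0.0525). The call was also lost without any single library of the groups without sgRNA and without JQ1 with sgRNA replicate 2, with an adjusted p of up to 0.123 (edgeR). The values of MANF (0.63 ± 0.15, adjusted p = 0.055), HSPA5 (0.67 ± 0.18, adjusted p = 0.0778), HERPUD1 (0.50 ± 0.14, adjusted p = 0.0866) and GDF15 (-0.60 ± 0.16, adjusted p = 0.0895) did not pass in edgeR. Without JQ1-FCPF with sgRNA replicate 2, MANF (0.49, adjusted p = 0.0411) and GDF15 (-0.69, adjusted p = 0.0172) passed, and HSPA5 (0.48, adjusted p = 0.0693) and HERPUD1 (0.50, adjusted p = 0.0558) did not. Without JQ1 with sgRNA replicate 1, GDF15 passed (-0.69, adjusted p = 0.0248). For DDIT4 and the rest a difference was not shown. Without both libraries that stand apart, 7 genes were called (3.25% of all genes), namely ASNS, CHAC1, GDF15, HERPUD1, HSPA5, MANF and TRIB3.

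JQ1 without sgRNA was next set against the control. The amino acid genes ASNS and PHGDH rose 1.81-fold and 1.7-fold, DDIT3 rose 1.69-fold, MANF rose 1.43-fold, and CHAC1 and SESN2 fell 1.82-fold and 1.33-fold. That is 6 of the 37 genes (3 higher and 2 lower in the ATF4 arm, 1 higher in the ER arm), against 12.3% of all genes tested (6.07% higher and 6.23% lower). ASNS stood at 394, 453 and 372 CPM in the control and at 727, 719.8 and 757 CPM with JQ1 (0.85 ± 0.15, adjusted p = 0.00243, edgeR). PHGDH was at 203, 230.0 and 204 CPM in the control and at 346, 367 and 368.5 CPM with JQ1 (0.76 ± 0.16, adjusted p = 0.0061, edgeR). The JQ1 replicates of both genes were close together and well above all 3 control libraries. DDIT3 went from 37.3, 30.7 and 27.1 CPM to 51.9, 54.2 and 54.6 CPM (0.76 ± 0.13, adjusted p = 0.00189, edgeR). MANF went from 51.7, 53.7 and 51.6 CPM to 76.3, 75.9 and 71.8 CPM (0.51 ± 0.11, adjusted p = 0.00572, edgeR). CHAC1 fell from 46.4, 66.6 and 55.2 CPM to 33.98, 31.5 and 26.8 CPM (-0.86 ± 0.20, adjusted p = 0.00908, edgeR). In all of these the groups did not overlap. SESN2 was at 92.6, 96.9 and 98.8 CPM in the control and at 72.6, 73.4 and 71.5 CPM with JQ1 (-0.41 ± 0.12, adjusted p = 0.0356, edgeR). The SESN2 call was lost without any 1 of the 6 libraries (adjusted p of up to 0.132), and that of CHAC1 without JQ1 without sgRNA replicate 3 (-0.77, adjusted p = 0.0587, edgeR).

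ATF4 was at 472, 538 and 497 CPM in the control and at 513, 462 and 479 CPM with JQ1, and its log2 fold change was -0.05 (interval -0.29 to 0.18). HSPA5, at 758, 766 and 761 CPM in the control and 893, 918 and 949 CPM with JQ1, had 0.27 ± 0.13 and did not pass (adjusted p = 0.159, edgeR) though the groups did not overlap. XBP1 and HERPUD1 had log2 fold changes of -0.03 and 0.00. The medians were 0.06 in the ATF4 arm and 0.05 in the ER arm, against 0.00 over all genes. Without both libraries that stand apart, neither of which is in this comparison, 12 genes were called, including all 6, against 26.9% of all genes. With only the groups compared in the fit it was 13, against 31.4%. The cause was not tested.

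JQ1 with sgRNA against the control gave 9 of the 37 genes, against 14.2% of all genes tested (7.21% higher and 7.04% lower). ASNS (0.63 ± 0.15), DDIT3 (0.82 ± 0.13), DDIT4 (0.67 ± 0.14), PHGDH (0.57 ± 0.16), MANF (0.34 ± 0.11) and EDEM1 (0.41 ± 0.13), which selects glycoproteins for degradation, rose. CHAC1 (-0.87 ± 0.20), CEBPB (-0.45 ± 0.12) and GDF15 (-0.35 ± 0.11) fell, with adjusted p between 0.000905 and 0.0453 over the 9 (edgeR). DDIT3 was at 55.1, 57.8 and 55.01 CPM, close to its level with JQ1 alone. CHAC1 was at 21.6, 32.5 and 38.2 CPM, with replicate 1 the lowest, and CEBPB at 78.1, 99.6 and 98.8 CPM against 107, 137 and 133 CPM in the control. EDEM1 was at 55.3, 45.8 and 45.2 CPM, all above the 40.7, 31.5 and 38.0 CPM of the control. The calls of CEBPB, EDEM1 and GDF15 were lost without replicate 1 of the treated group (adjusted p = 0.0572, 0.143 and 0.15, edgeR). The count was 3 (4.59% of all genes) without control replicate 3, 4 (10% of all genes) without replicate 3 of the treated group, 5 (7.17%) without control replicate 2 and 7 (11.8%) without replicate 1 of the treated group.

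JQ1-FCPF without sgRNA was also set against the control. Of the 37 genes 0 were called (edgeR), against 0.00644% of all genes tested, with 2 (5.41%, against 1.84% of all genes) at an unadjusted p under 0.05 (DNAJB9 and HERPUD1, both with negative values) and 0 by DESeq2. ASNS had 421, 408 and 391 CPM here and 394, 453 and 372 CPM in the control, a log2 fold change of 0.00 with an interval of -0.32 to 0.32. CHAC1 had 51.5, 59.5 and 52.5 CPM against 46.4, 66.6 and 55.2 CPM. Of the ER arm, 16 of 17 log2 fold changes were below 0, with a median of -0.10, against 0.00 over all genes.

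JQ1-FCPF with sgRNA against the control gave 10 of the 37 genes, against 7.21% of all genes tested (2.42% higher and 4.79% lower). ASNS (0.71 ± 0.15), ATF3 (0.50 ± 0.13), DDIT3 (0.45 ± 0.13), DDIT4 (0.51 ± 0.14), HERPUD1 (0.49 ± 0.10), HSPA5 (0.47 ± 0.13) and MANF (0.37 ± 0.11) rose. GDF15 (-1.15 ± 0.12), CHAC1 (-0.80 ± 0.20) and XBP1 (-0.45 ± 0.11) fell, and the adjusted p over the 10 ran from 1.7e-06 to 0.0387 (edgeR). XBP1 was at 105, 115.5 and 109.6 CPM in the control and at 71.1, 94.6 and 76.2 CPM in the treated group, with no overlap. With only the groups compared in the fit the count was 2, GDF15 and HERPUD1 (3.76% of all genes), and the other 8 calls were lost. Without replicate 2 of the treated group the count was 6 (6.77% of all genes), namely ASNS, ATF3, GDF15, HERPUD1, XBP1 and TRIB3. It was 5 (4.41%) without control replicate 2 and 4 (3.43%) without control replicate 3. This comparison shares its treated libraries with that against JQ1-FCPF without sgRNA.

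The compounds were compared at the same dose and time, without and with sgRNA. Without sgRNA, 7 of the 37 genes differed, against 7.8% of all genes tested (4.11% higher and 3.69% lower). ASNS (-0.85 ± 0.15), PHGDH (-0.81 ± 0.16), PSAT1 (-0.42 ± 0.13), DDIT3 (-0.60 ± 0.13), MANF (-0.60 ± 0.11) and HSP90B1 (-0.34 ± 0.10) were lower with JQ1-FCPF than with JQ1, and CHAC1 (0.82 ± 0.20) was higher. Adjusted p-values ran from 0.00533 to 0.0443 (edgeR). For PSAT1 the libraries stood at 377.5, 418.5 and 372 CPM with JQ1 and at 313.5, 265 and 292 CPM with JQ1-FCPF, with no overlap. For HSP90B1 they stood at 988, 999 and 966 CPM and at 820.0, 730.1 and 776 CPM. The count was 2 (ASNS and MANF, 0.479% of all genes) without JQ1 without sgRNA replicate 2, and 4 without replicate 1 or 3 of that group (1.76% and 2.33%). It was 4 (1.91%) without JQ1-FCPF without sgRNA replicate 2 and 3 (0.856%) without replicate 3. It was 16, all 7 among them, without both libraries that stand apart (22.6% of all genes), and 15 with only the groups compared in the fit (20.6%).

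With sgRNA, 2 of the 37 genes differed between the compounds, against 2.95% of all genes tested (1.18% higher and 1.77% lower). GDF15 was lower with JQ1-FCPF (-0.80 ± 0.12, adjusted p = 0.000453, edgeR) and ATF3 was higher (0.49 ± 0.13, adjusted p = 0.0437, edgeR). ATF3 was at 21.5, 21.4 and 26.5 CPM with JQ1 and at 34.8, 24.6 and 38.1 CPM with JQ1-FCPF, groups that overlapped. For ASNS the difference was 0.09 (interval -0.23 to 0.40) and for HSPA5 0.30 (interval 0.04 to 0.56, adjusted p = 0.2, edgeR). Without JQ1-FCPF with sgRNA replicate 2 the count was 15, with ATF4, DDIT3, TRIB3 and XBP1 among them, against 17.4% of all genes. It was 1 (1.37%) without JQ1 with sgRNA replicate 2, 1 without replicate 1 or 3 of JQ1-FCPF with sgRNA (0.429% and 0.683%) and 0 (0.0746%) with only the groups compared. GDF15 was at -0.90 and ATF3 at 0.66 without JQ1-FCPF with sgRNA replicate 2, and at -0.90 and 0.45 (adjusted p = 0.0815 for ATF3) without JQ1 with sgRNA replicate 1.

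JQ1 without sgRNA against the control and JQ1-FCPF with against without sgRNA have no library in common, although they share 1 estimate of the spread. ASNS and MANF rose and CHAC1 fell in both. Those called in the second and not in the first were ATF3, ATF6, DDIT4, GDF15 (0.13 and -1.07), HERPUD1 (0.00 and 0.73), HSP90B1, HSPA5 (0.27 and 0.57) and PDIA6. The reverse held for DDIT3 (0.76 and 0.29), PHGDH (0.76 and 0.52) and SESN2 (-0.41 and 0.22), and the differences between these comparisons were not tested. Across the 37 genes the log2 fold changes had a Pearson r of 0.52 and a Spearman rho of 0.58, against 0.32 and 0.37 across all 15517 genes, and 24 of 37 (64.9%) had the same sign, against 63.9% of all genes. Genes are not independent replicates. These values include JQ1-FCPF with sgRNA replicate 2, which lay on the side of the JQ1 libraries, and were not recomputed without it. Without that library the second comparison gave smaller changes for ASNS, PHGDH and MANF and a larger one for GDF15.

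**Figure D4:**
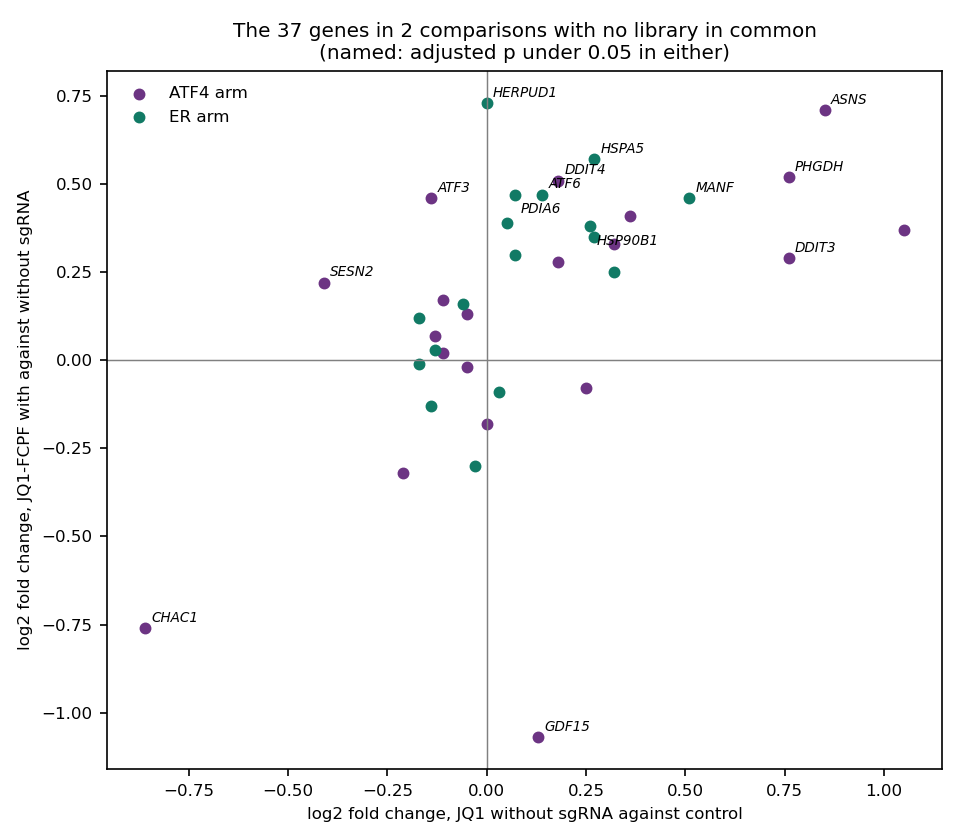
Log2 fold change of each of the 37 genes for JQ1 without sgRNA against the control (x axis) and JQ1-FCPF with against without sgRNA (y axis), coloured by arm, with names where the adjusted p was under 0.05 in either (edgeR). ASNS lies high on both axes, CHAC1 low on both, and HERPUD1 and GDF15 are far from 0 on the y axis only.

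Of the 37 genes, 18 were called in at least 1 of the 9 comparisons, 10 in the ATF4 arm and 8 in the ER arm. The other 19 were called in none, ATF4, ERN1 and EIF2AK3 among them. In the ATF4 arm the other uncalled genes were SLC7A5, SLC3A2, SLC7A11, SHMT2, PSPH, PPP1R15A, TRIB3, CEBPG and VLDLR. In the ER arm they were SDF2L1, CALR, PDIA4, SYVN1, CRELD2, SEL1L and DNAJB9.

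Related lists give the surroundings of these genes. Under JQ1-FCPF, with against without sgRNA, 3 of 18 tested genes of further amino acid response rose and 1 fell, with a median log2 fold change of 0.23. CTH, which makes cysteine (0.82 ± 0.22), MTHFD2 of mitochondrial folate metabolism (0.65 ± 0.15) and the neutral amino acid transporter SLC1A4 (0.42 ± 0.12) rose, with adjusted p of 0.0262, 0.0122 and 0.0342 (edgeR). Without replicate 2 of the group with sgRNA these values were 0.31, 0.36 and 0.36 (adjusted p = 0.14, 0.046 and 0.0797), and the list's median was 0.11. The amino acid transporter SLC38A2 fell (-0.72 ± 0.09, adjusted p = 4.57e-05, edgeR, and -0.68 without replicate 2), and fell also with JQ1 without sgRNA against the control (-0.53 ± 0.09, adjusted p = 0.00227). Of the 12 aminoacyl-tRNA synthetases, which charge transfer RNAs, 0 were called and all 12 had positive values (median 0.28), and 7 were at an unadjusted p under 0.05, against 21.8% of all genes tested, while DESeq2 called EPRS1 and WARS1. Without replicate 2 the median was 0.09, 11 of 12 were positive and 0 were at an unadjusted p under 0.05. WARS1 (0.47 ± 0.15) and EPRS1 (0.39 ± 0.13) had the smallest p (0.20 ± 0.11 and 0.21 ± 0.11 without replicate 2). With JQ1 without sgRNA against the control, 2 of the 12 were called, against 12.3% of all genes tested (6.07% higher and 6.23% lower). These were WARS1 (0.48 ± 0.15) and AARS1 (0.60 ± 0.17), both higher.

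Of the further ER genes 0 were called with against without sgRNA under JQ1-FCPF. Of 16 other chaperones and folding enzymes 0 were called (3 at an unadjusted p under 0.05), with a median of 0.17 and DNAJB11 and HYOU1 at 0.21 ± 0.09 and 0.29 ± 0.12. Of 19 genes of ER-associated degradation and translocation 0 were called (6 at an unadjusted p under 0.05), with a median of 0.11 and ERLEC1 at 0.46 ± 0.16. Of 8 genes of eIF2 control and 8 tested genes of sensor processing 0 were called in each (2 and 0 at an unadjusted p under 0.05), with medians of 0.05 and 0.06. The kinases EIF2AK1 and EIF2AK4, which phosphorylate eIF2 on haem or amino acid shortage, had 0.27 ± 0.10 and 0.24 ± 0.10. Without replicate 2, 0 were called in these 4 lists as well, 1, 2, 0 and 0 were at an unadjusted p under 0.05 (19.3% of all genes), and the medians were 0.15, 0.12, 0.04 and 0.03. DESeq2 called 0 in each of these 4 lists.

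Some reads may be shared with neighbouring genes, since the use of strand in counting is not given in the sources used here. In GENCODE release 29, DDIT3 shares 355 of its 1266 exon bases (28.04%) with MARS1 on the opposite strand, and MARS1 had 6532 counts per library on average against 652 for DDIT3. MARS1 stood at 409.9 ± 8.88 CPM in the control and 463 ± 10.1 CPM with JQ1 without sgRNA (SD, n = 3). PDIA6 shares 25.19% of its exon bases with ATP6V1C2, also on the opposite strand, but ATP6V1C2 had only 71 counts per library on average against 3862 for PDIA6. SYVN1 shares 7.24% with FAU on the same strand, which no strand setting separates, and FAU had 10105 counts against 1246 for SYVN1. The values of DDIT3, PDIA6 and SYVN1 are uncertain through these overlaps, and the part of the overlaps in the results was not tested.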

How the data were processed

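RNA sequencing of K562 cells gave 15 libraries in 5 groups of 3, taken from the labels. RNA was isolated with Trizol and sequenced by Azenta, per the labels' protocols. The authors deposited raw read counts per gene, 1 table per library, with coordinates and exon lengths beside each count, per the file headers. No aligner, build, annotation or strand setting was given in the sources used here. GENCODE release 29 (build GRCh38) held 56898 of the 57500 identifiers, with start and end unchanged for 96.3% of those.

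Testing used edgeR 4.0.16 (R 4.3.3) on the deposited counts, with the filterByExpr rule and TMM scaling. A quasi-likelihood fit with a mean for each group covered all 15 libraries and 15517 genes (biological coefficient of variation 11.1%), and p-values were adjusted by Benjamini-Hochberg over all genes at a threshold of 0.05. CPM values use the TMM-scaled library sizes, and a prior count of 2 was added for log2 CPM. Totals of 12625669 to 17544518 counts per library limit the precision chiefly of the low genes VLDLR and EIF2AK3. The procedure was tested on simulated data in which every gene had the same spread and no library stood apart. That test therefore does not show how the procedure behaves with libraries such as those that stand apart here. Every pair of replicates differed by more than sampling noise (chi-square per degree of freedom 3.18 to 56.1).

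Members and lists were chosen with earlier results of these data known. Named genes are those called in at least 1 of the 9 comparisons, ATF4, DDIT3, HSPA5, XBP1, ATF6, ERN1 and EIF2AK3, with the others given by range and count, and up to 4 genes of each related list with the smallest p under JQ1-FCPF. Related genes outside that rule (AARS1, MARS1), and SLC7A11 and TRIB3 by library, were named after their values were seen. The results were recomputed with DESeq2 1.42.0, with edgeR under DESeq2's size factors, without the filter, with only the groups compared, with the replicate letter as a block, and without each library in turn or without both libraries that stand apart. The related lists without JQ1-FCPF with sgRNA replicate 2 were added after the data were seen.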

Additional observations from a re-analysis of the deposited data

Results flagged for a closer look

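The difference between the sgRNA effects under JQ1-FCPF and under JQ1 passed the test for ASNS, at 0.94 ± 0.21 on the log2 scale (adjusted p = 0.0396, edgeR's quasi-likelihood interaction test). Its level rose with sgRNA under JQ1-FCPF from 406 ± 15.1 to 665 ± 205 CPM, and stood at 735 ± 20.04 without and 627 ± 88.3 CPM with sgRNA under JQ1 (SD, n = 3). Over 18 alternatives the value lay between 0.58 and 1.07, and it kept an adjusted p under the threshold in 8 of them.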

How the results depend on the processing

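Over 618 recomputed values of 51 results for single genes, 470 kept direction and side of the threshold, 145 lost the call, 2 gained it and 1 reversed. Of 46 called results 14 held in every alternative. The reversal was EIF2AK3 with sgRNA under JQ1-FCPF, whose values ran from -0.32 to 0.05 when single libraries were left out, the latter without replicate 3 of the group with sgRNA.

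Counts of called genes are given here with the share of all genes called in brackets. With only the groups compared in the fit, they were 3 for sgRNA under JQ1-FCPF (2.43%) and 0 for the interaction (0.532%). Against the control they were 13 for JQ1 without sgRNA (31.4%) and 2 for JQ1-FCPF with sgRNA (3.76%). For JQ1-FCPF against JQ1 they were 15 without (20.6%) and 0 with sgRNA (0.0746%). DESeq2 called 7 for the interaction (2.04%) and 4 for JQ1-FCPF against JQ1 with sgRNA (4.65%). With no filter on low counts there were 2 for sgRNA under JQ1 (0.203%) and 6 for the interaction (0.8%). Without both libraries that stand apart there were 1 for sgRNA under JQ1 (0.0572%) and 7 for the interaction (3.25%). There were 12 for JQ1 without sgRNA against the control (26.9%). For JQ1-FCPF against JQ1 there were 16 without (22.6%) and 14 with sgRNA (20.2%). The cause of these differences was not tested.

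Deviations of same-letter samples had correlations of -0.24 to 0.31. The highest were 0.31 and 0.21, for replicates 1 and 2 of JQ1 with sgRNA and the control, where the same letter was also the best match. The labels do not say whether the letters pair samples, and with 3 libraries a group these correlations cannot settle it. With the replicate letter as a block, 9 genes were called for sgRNA under JQ1-FCPF (5.37% of all genes). There were 0 for the interaction (0.599%) and 1 for JQ1-FCPF against JQ1 with sgRNA (2.45%).

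Leaving out each library in turn gave 3 to 12 calls for sgRNA under JQ1-FCPF (2.69 to 7.13% of all genes) and 0 to 3 for the interaction (0.315 to 2.18%). Against the control it gave 4 to 5 for JQ1 without (2.72 to 8.41%) and 3 to 7 for JQ1 with sgRNA (4.59 to 11.8%). For JQ1-FCPF with sgRNA against the control it gave 4 to 11 (3.43 to 7.6%). For JQ1-FCPF against JQ1 it gave 2 to 7 without (0.479 to 6.15%) and 1 to 15 with sgRNA (0.429 to 17.4%). It gave 0 in every case for sgRNA under JQ1 and for JQ1-FCPF without sgRNA against the control. With 3 libraries a group, changes under about the spread between libraries were not detectable.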
